A study of Equus caballus with 6 samples.

Results

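Blood-testis barrier and cell junction genes were examined in testicular parenchyma of 6 adult stallions, from a list of 35 genes: claudins, other tight junction genes, gap junction connexins, adherens junction genes and genes of the ectoplasmic specialization. A probe was taken as a member where the platform's gene table gives it exactly 1 symbol and that symbol is on the list, which found 44 of the 53423 gene probes on the array, for 31 of the 35 genes. In the treated group, 3 stallions had received 0.1 mg/kg dexamethasone, a synthetic glucocorticoid, by vein. In the control group, 3 stallions had received an equal volume of saline. All 6 were adults kept at the clinic for 10 days beforehand, and their testes were removed 12 h after the injection. The RNA of every animal was read on 1 array of its own, a 1-colour CodeLink array whose probes were made for human genes. The study asked which testicular genes differ after the glucocorticoid.

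Sertoli cells, the supporting cells of the seminiferous tubule, are joined to each other near the base of the tubule by the blood-testis barrier. The barrier combines tight junctions, which seal the space between cells, with gap junctions, which pass small molecules, and with adherens-type contacts anchored to actin. A testis-specific form of these contacts, the ectoplasmic specialization, also holds elongating spermatids to the Sertoli cell. The barrier separates spermatogonia from meiotic and later germ cells and opens and closes as spermatocytes cross it. In mice, loss of CLDN11 leaves males without Sertoli cell tight junctions and sterile.

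Levels below are log2 intensities after background correction with an added offset of 50 and quantile normalisation between arrays. A level depends on the probe as well as on the transcript, so levels are compared between stallions and not between probes. Each array also gives a signal strength, the spot's mean over its own noise level, and a spot under 1 is flagged as near background. Between 42.5% and 47.8% of gene probes were above background per array, and the arrays correlated at 0.982 to 0.989 across probes, which are not independent replicates. Slide numbers formed 2 runs. The first held replicates 1 and 2 of both groups and the second held replicate 3 of both.

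The tissue label was set against cell type markers, with 1 probe a gene. Among 12 Sertoli markers 8 were tested, AMH, FSHR and GATA4 among them, while SOX9 and KITLG were above background on no array. The 8 averaged 8.33 to 8.47 in the dexamethasone stallions and 8.38 to 8.50 in the controls. Of 7 endothelial markers 5 were tested, averaging 7.43 to 7.48 against 7.42 to 7.57, and KDR was above background on no array. Of 6 duct epithelial markers 1 was tested, while EPCAM, KRT8, KRT18, KRT19 and CRISP1 were above background on no array. Spermatocyte markers averaged 9.44 to 9.61 in dexamethasone stallions and 9.49 to 9.70 in controls (4 of 5 tested), and spermatid markers 8.27 to 8.31 and 8.25 to 8.44 (3 of 6 tested), while PRM2 and TNP1 were above background on no array. Leydig cell genes averaged 9.56 to 9.83 in the dexamethasone stallions and 10.03 to 10.20 in the controls over INSL3, LHCGR and STAR, where INSL3 itself had 8.70 to 9.70 against 10.33 to 10.66. The log2 differences of LHCGR and STAR were -0.08 ± 0.09 and 0.01 ± 0.11 (SE) with groups that overlapped, the median over the 6 tested of 7 Leydig genes was -0.04, and NR5A1 was above background on no array. Of the peritubular myoid genes MYLK and ACTA2 were tested, averaging 7.38 to 7.55 in the dexamethasone stallions and 7.56 to 7.60 in the controls. MYLK differed by -0.22 ± 0.08 (SE) with groups apart and ACTA2 by -0.02 ± 0.10 with groups that overlapped, and CNN1 and MYH11 were above background on no array. In bulk tissue, fewer cells of a type and less RNA per cell cannot be told apart.

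Not every junction gene could be read. F11R, TJP3, MARVELD2 and CDH1 were named alone by no probe and were not analysed here. Of the 44 member probes, 19 were above background on all 6 arrays, 11 on 1 to 5 arrays and 14 on none, where a spot with another quality flag does not count as above background. For 2 of the 11, the first CLDN11 probe and a second AFDN probe, only such a flag kept the count under 6. Their signal strength was over 1 on all 6 arrays. The second CLDN11 probe also lost dexamethasone stallion 1 to such a flag, at a signal strength of 1.05. A probe was tested where it was above background on at least 3 arrays with at least 2 usable values per group, which left 27 probes for 21 genes (61.4% of the member probes, against 51.6% of all probes with 1 symbol). The 10 genes with a probe but no test were CLDN3, JAM2, JAM3, TJP1, GJA1, GJC1, CTNNA1, NECTIN2, ITGB1 and EPS8. They include several components known to be central to the barrier: TJP1 (ZO-1), the scaffold under tight junctions, GJA1, a main connexin between Sertoli cells, and ITGB1, the beta 1 integrin. How well each human probe matches the horse transcript was not examined here, so a signal near background does not show that the gene is silent. All 35 symbols are present in RefSeq's horse gene table.

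**Figure D1:**
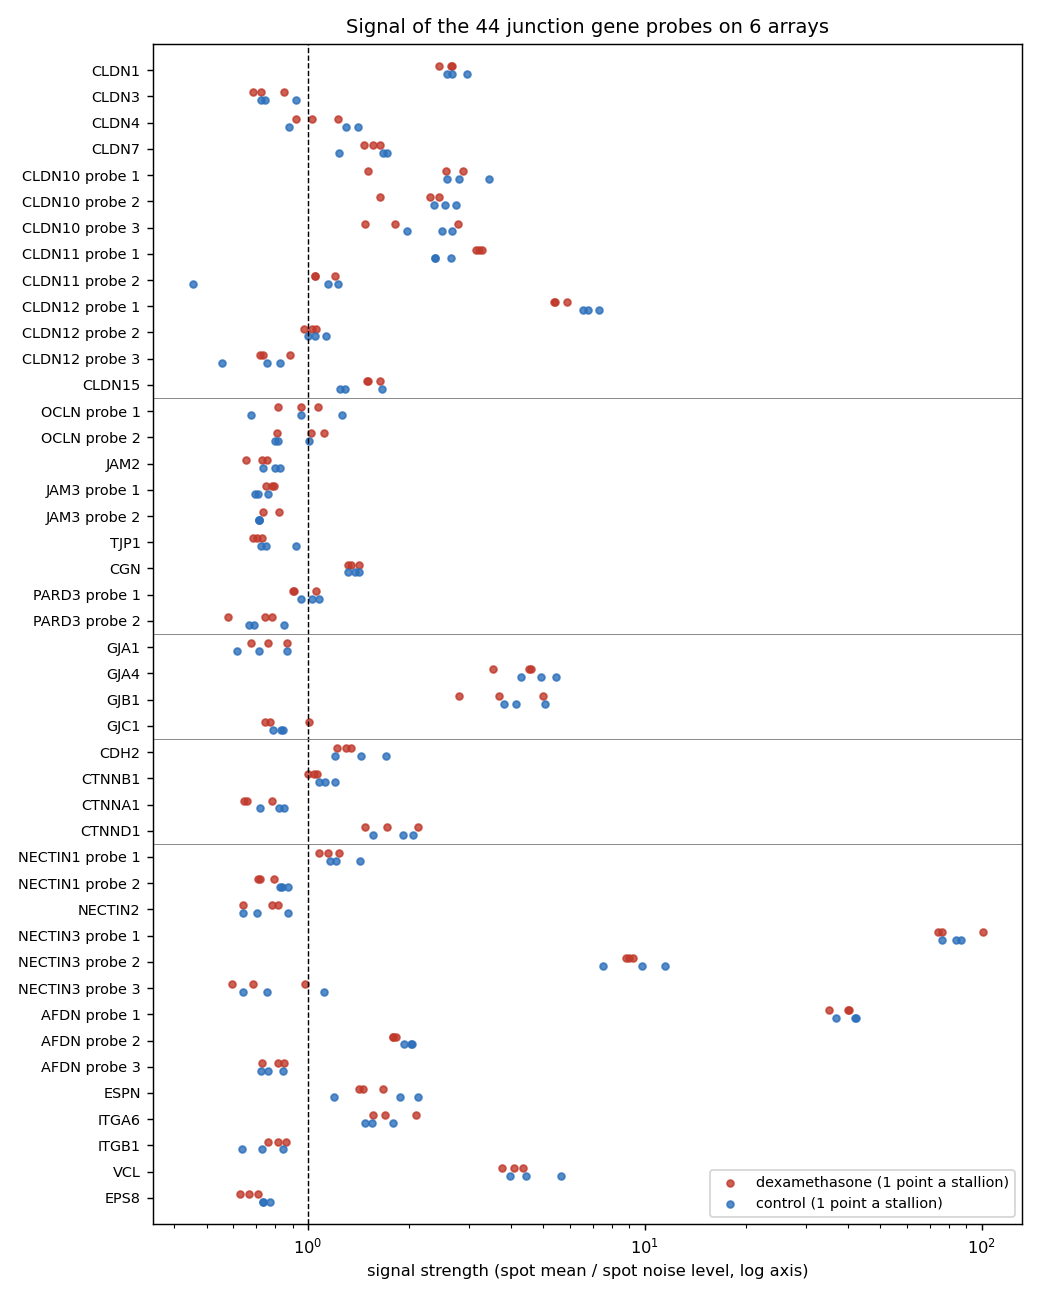
Signal strength of each of the 44 junction gene probes on the 6 arrays (log axis, spot mean over spot noise level), with 1 point a stallion, dexamethasone above control in each line, spots with quality flags included and 1 spot with no value left out. The dashed line at 1 is the limit under which a spot is flagged as near background, and 14 probes were above it on no array.

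No junction probe passed the test over all probes. Of the 21 tested genes, each represented by its tested probe with the highest mean level, 10 lay higher and 11 lower in the dexamethasone stallions, with a median log2 difference of -0.01. Over all 10604 tested genes, 5019 lay higher and 5585 lower, and the median was also -0.01. An unadjusted p under 0.05 was reached by 1 of the 21, CLDN11, which was higher. Among all tested genes 3.87% reached it, 1.76% as higher and 2.1% as lower ones. Treated and control values were fully apart for 1 of the 21 genes, again CLDN11, against 9.33% of all tested genes. CLDN11 had 3 treated and 2 control values, which come apart more easily than 3 and 3. Most of all tested genes had 6 values, so the 9.33% is too low a yardstick for CLDN11. Among the 20 junction genes with a value on every array none had groups apart, against 8.48% of all such genes. Over all 24590 tested probes 0.00407% passed limma's adjusted p of 0.05, a single probe that belongs to no junction gene, and the smallest adjusted p of a junction gene was 0.999. For a single gene, an exact permutation test over 3 treated and 3 control animals cannot go below a two-sided p of 0.1, and the number of arrays limits the precision.

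**Figure D2:**
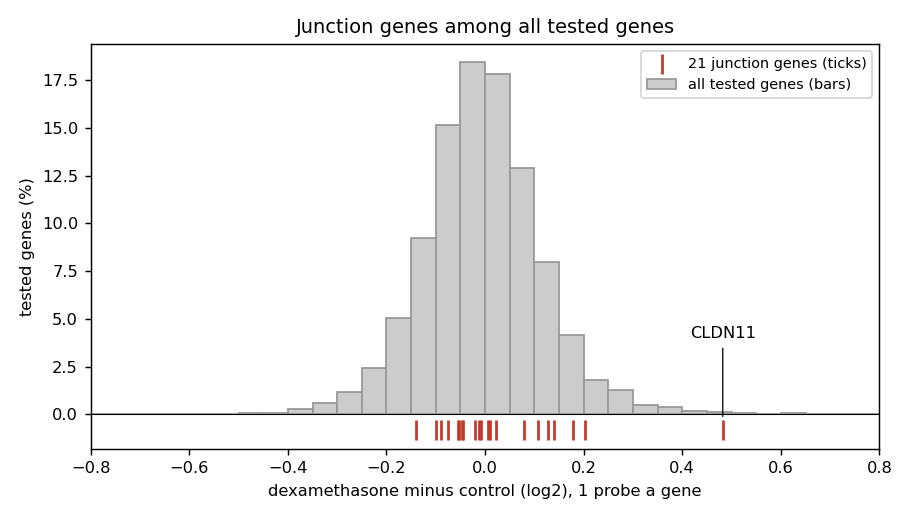
Log2 differences of the 21 tested junction genes (red ticks under the axis) and of all 10604 tested genes (grey bars, percent of genes per 0.05 of log2 difference, with 8 genes beyond the axis). The junction genes run from -0.14 to 0.48, and CLDN11 stands at the upper end.

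Claudins, the 4-span membrane proteins that form tight junction strands, were measured for 7 of 8 genes, 4 of them higher and 3 lower with a median of 0.01. CLDN11, the claudin of Sertoli cell tight junctions, had levels of 7.92, 8.26 and 8.10 in dexamethasone stallions 1 to 3, against 7.50 and 7.72 in control stallions 1 and 3. The second control spot carried a quality flag whose meaning the files do not state and was left out. All 3 treated values lay above both controls. The difference was 0.48 ± 0.13 on the log2 scale (SE, 95% interval 0.20 to 0.77), about 1.40-fold, with an unadjusted limma p of 0.00423 and an adjusted p of 0.999. With the flagged spot kept, control stallion 2 had 7.74, close to the 7.72 of control stallion 3, and the difference was 0.44 ± 0.11 (SE). It was 0.50 ± 0.13 with the slide run as a block, 0.59 in the first run and 0.37 in the second, and 0.40 to 0.57 with 1 treated array left out. Without control replicate 1 or 3 a single control value remained, and the difference was 0.37 and 0.59. In none of the 10 marker lists did the mean levels of all treated stallions lie above those of all controls. In the Leydig and peritubular myoid lists they all lay below, and the 8 Sertoli markers had a median difference of -0.03. The spermatogonia list had a median of 0.11, with means of 7.94 to 8.07 in treated stallions against 7.84 to 7.99. The macrophage list had 0.08, with 7.57 to 7.64 against 7.48 to 7.57. The 1 tested erythrocyte gene had 0.13, and the medians of all other lists were below 0. Whether the cell makeup of the samples had a part in the CLDN11 difference was not tested.

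A second CLDN11 probe lay close to background, with signal strengths of 1.05 to 1.21 in the dexamethasone stallions and of 0.46 to 1.22 in the controls. Its usable levels were 6.80 and 6.60 in dexamethasone stallions 2 and 3, against 6.67 and 6.65 in control stallions 2 and 3. They overlapped, and the difference was 0.04 ± 0.12 (SE, 95% interval -0.23 to 0.31). The offset compresses differences near background. Whether this had a part in the gap between the 2 CLDN11 probes was not tested. The mean of both, each centred first, differed by 0.28 ± 0.11 (SE, limma adjusted p = 0.996). Over the alternatives run, limma's adjusted p of CLDN11 was at least 0.659.

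CLDN15, a claudin that forms cation pores in intestinal epithelium, had levels of 6.85, 7.13 and 7.10 in the dexamethasone stallions, against 7.00, 6.72 and 6.76 in the controls. Only the first stallion of each group lay within the other group's range, and the difference of 0.20 ± 0.11 (SE) did not pass the test. It was 0.29 without dexamethasone replicate 1 and also 0.29 without control replicate 1, and in both cases its unadjusted p fell under 0.05. Leaving out an array that lies toward the other group enlarges a difference by itself. Among all genes 4.47% and 3.12% reached that p with these arrays left out. CLDN10, whose splice forms make anion or cation pores, was read by 3 probes, above background on all 6 arrays. The probe that stands for the gene had 7.10, 7.78 and 7.99 in the dexamethasone stallions, against 7.61, 7.94 and 7.73 in the controls. Dexamethasone stallion 1 was low on this probe and also on probe 3, at 6.99, where the other 5 stallions had 7.40 to 7.97, but not on probe 2, at 7.53. The 3 differences were -0.14 ± 0.20, -0.06 ± 0.11 and -0.19 ± 0.21 (log2, SE), and the first was 0.13 without dexamethasone stallion 1. It was also of opposite sign in the 2 slide runs, at -0.34 and 0.26.

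CLDN12, a claudin lacking the usual binding motif for ZO proteins, had 2 tested probes. The first had 8.82, 8.91 and 9.01 in the dexamethasone stallions, against 9.09, 8.94 and 8.97 in the controls, a difference of -0.09 ± 0.09 (SE), and the second differed by -0.00 ± 0.09. The remaining CLDN12 probe was above background on no array. CLDN1, CLDN4 and CLDN7, claudins of many simple epithelia, differed by 0.01 ± 0.08, -0.05 ± 0.13 and 0.02 ± 0.10 (log2, SE), with groups that overlapped. CLDN4 was above background in 2 treated stallions and 2 controls. CLDN3, a claudin found in newly formed barrier of mouse tubules, had signal strengths of 0.69 to 0.85 in treated and 0.72 to 0.92 in control stallions and was above background on no array.

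**Figure D3:**
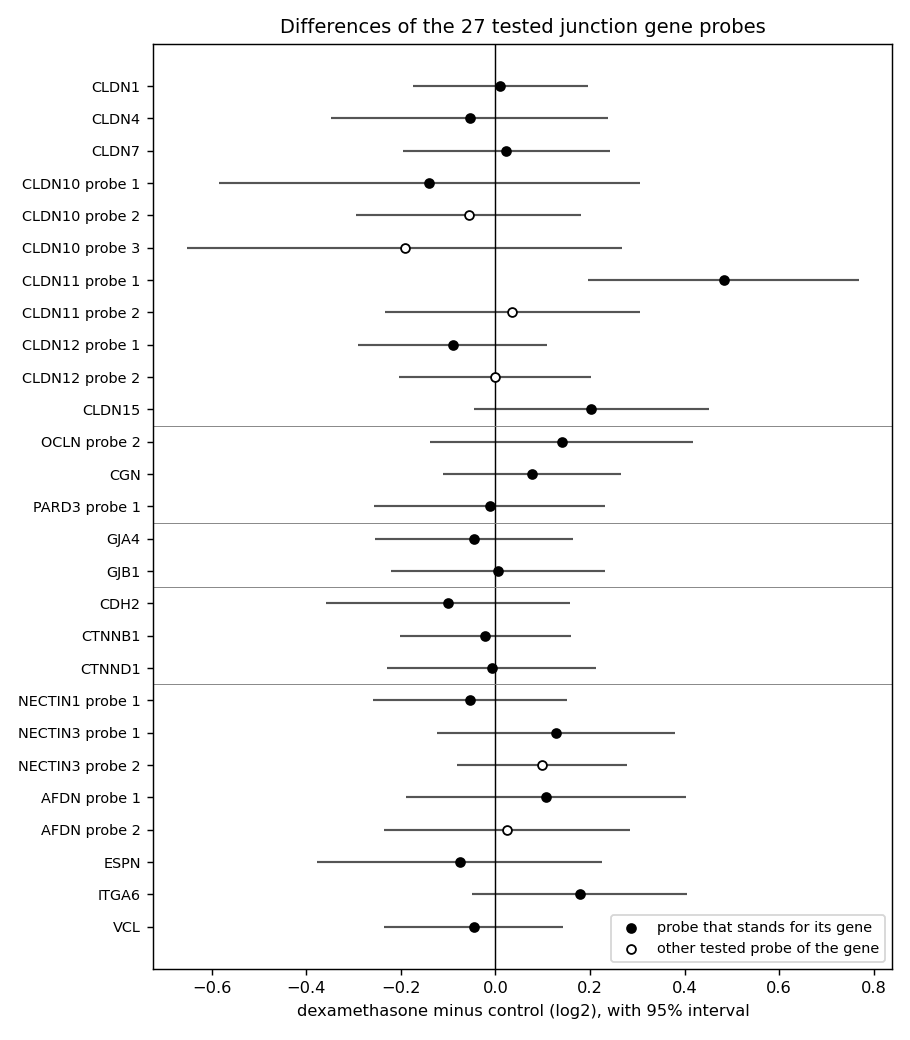
Log2 differences, dexamethasone minus control, of the 27 tested junction gene probes with limma's 95% intervals (horizontal lines); filled points stand for their gene and open points are further probes, and grey lines part claudins, other tight junction, gap junction, adherens junction and ectoplasmic specialization genes. The first CLDN11 probe is the one interval that does not hold 0, at 0.20 to 0.77.

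Other tight junction genes were tested for 3 of 9 genes, none past the test. OCLN, occludin, a tight junction membrane protein, had 6.17, 6.54 and 6.44 in the dexamethasone stallions, against 6.09, 6.18 and 6.45 in the controls. The groups overlapped, and the probe was above background in 2 treated stallions and 1 control. Its difference was 0.14 ± 0.12 (SE), and another OCLN probe was above background on 2 arrays and not tested. CGN, cingulin, which links tight junctions to the cytoskeleton, was above background on all arrays and differed by 0.08 ± 0.08. PARD3, a polarity protein that places tight junctions, had 6.23, 6.57 and 6.36 in the dexamethasone stallions, against 6.45, 6.26 and 6.50 in the controls. These overlapped with a difference of -0.01 ± 0.11 (SE), and the spots were above background in 1 treated stallion and 2 controls. JAM3, an adhesion molecule of Sertoli cells and spermatids, was near background on both probes. The first had 5.99, 6.11 and 6.11 against 5.94, 5.94 and 5.92, and the second 6.06 and 6.03 in 2 treated stallions against 5.95 to 5.96 in the 3 controls. Neither probe's groups overlapped, but since no spot was above background no fold is given. Of the 17 member probes that were not tested, 3 had groups that did not overlap, these 2 and that of EPS8, while 10.6% of all untested probes with at least 2 values per group did not overlap. JAM2 and TJP1 were above background on no array.

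Gap junction genes were tested for 2 of 4. GJA4, a connexin of blood vessel endothelium, had 8.41, 8.33 and 8.59 in the dexamethasone stallions, against 8.51, 8.53 and 8.43 in the controls, and differed by -0.05 ± 0.09 (SE). GJB1, a connexin known from liver and myelinating cells, had 8.66, 8.41 and 8.37 against 8.56, 8.38 and 8.49, and differed by 0.01 ± 0.10. Treated and control values were intermingled for both connexins. Their 95% intervals ran from -0.25 to 0.16 and from -0.22 to 0.23. GJA1 had signal strengths of 0.68 to 0.87 in treated and 0.62 to 0.87 in control stallions, and GJC1, a connexin of heart conduction and vessel muscle, was above background in 1 treated stallion.

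Adherens junction genes were tested for 3 of 5, and all 3 differences were near 0. CDH2, N-cadherin, the adhesion protein that joins Sertoli cells to each other and to germ cells, had 6.64, 6.85 and 6.75 in the dexamethasone stallions, against 6.84, 7.06 and 6.64 in the controls. The treated values lay within the control range to within 0.01, and the difference was -0.10 ± 0.12 (SE, 95% interval -0.36 to 0.16). CTNNB1, beta-catenin, which binds cadherin tails, had 6.44, 6.55 and 6.46 against 6.51, 6.47 and 6.53. Its difference of -0.02 ± 0.08 came from a dim probe, above background on 5 arrays. CTNND1, p120-catenin, which keeps cadherins at the membrane, differed by -0.01 ± 0.10. CTNNA1, alpha-catenin, the link from cadherins to actin, was above background on no array.

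Genes of the ectoplasmic specialization and of cell-matrix contacts were tested for 6 of 9, with 3 higher, 3 lower and a median of 0.03. NECTIN3, the nectin on the spermatid side of the contact, was read by a probe at 12.66, 12.91 and 12.87 in the dexamethasone stallions, against 12.53, 12.65 and 12.88 in the controls. These overlapped, with a difference of 0.13 ± 0.11 (SE). A second NECTIN3 probe had 9.69, 9.76 and 9.66 against 9.62, 9.64 and 9.55. Here the groups were just apart, by 0.01 at the nearest, and the difference was 0.10 ± 0.08 (SE, limma adjusted p = 0.999), while 9.27% of all tested probes had groups that did not overlap. The remaining NECTIN3 probe was above background on 1 array. NECTIN2, the Sertoli side partner of NECTIN3, was above background on no array. NECTIN1 had 6.61, 6.74 and 6.76 in the dexamethasone stallions, against 6.86, 6.64 and 6.78 in the controls, a difference of -0.05 ± 0.09 (SE).

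AFDN, afadin, which ties nectins to actin, had 11.64, 11.74 and 11.85 in the dexamethasone stallions, against 11.51, 11.46 and 11.95 in the controls. Control stallion 3 was above every treated animal and the other controls below, and the difference was 0.11 ± 0.13 (SE). Leaving out control replicate 3, the highest control, gave 0.27, with an unadjusted p under 0.05, which 4.51% of all genes reached in that setting. A second AFDN probe differed by 0.03 ± 0.11 and the remaining one was above background on no array. ESPN, espin, which bundles the actin of the ectoplasmic specialization, had 7.02, 6.96 and 6.98 in the dexamethasone stallions, against 7.33, 7.12 and 6.74 in the controls. The treated values lay close together inside a wide control range, and the difference was -0.08 ± 0.13 (SE). It was -0.24 without control replicate 3, the lowest control, where its unadjusted p fell under 0.05, as for the same 4.51% of genes. VCL, vinculin, which couples adhesion sites to actin, had 8.38, 8.47 and 8.35 against 8.53, 8.39 and 8.41, and differed by -0.05 ± 0.08. ITGA6, the alpha 6 integrin of cells on laminin, had 7.36, 7.03 and 7.28 in the dexamethasone stallions, against 7.11, 6.99 and 7.04 in the controls. Its groups overlapped through dexamethasone stallion 2, and the difference was 0.18 ± 0.10. Without that stallion it was 0.28, with an unadjusted p under 0.05, which 4.77% of all genes reached in that setting. For AFDN, ESPN and ITGA6 the array left out pulled against the difference, so leaving it out enlarges the difference by itself. EPS8, an actin regulator of the barrier, had 5.91, 5.78 and 5.89 against 6.07, 6.03 and 6.16, all below background, so no fold is given.

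**Figure D4:**
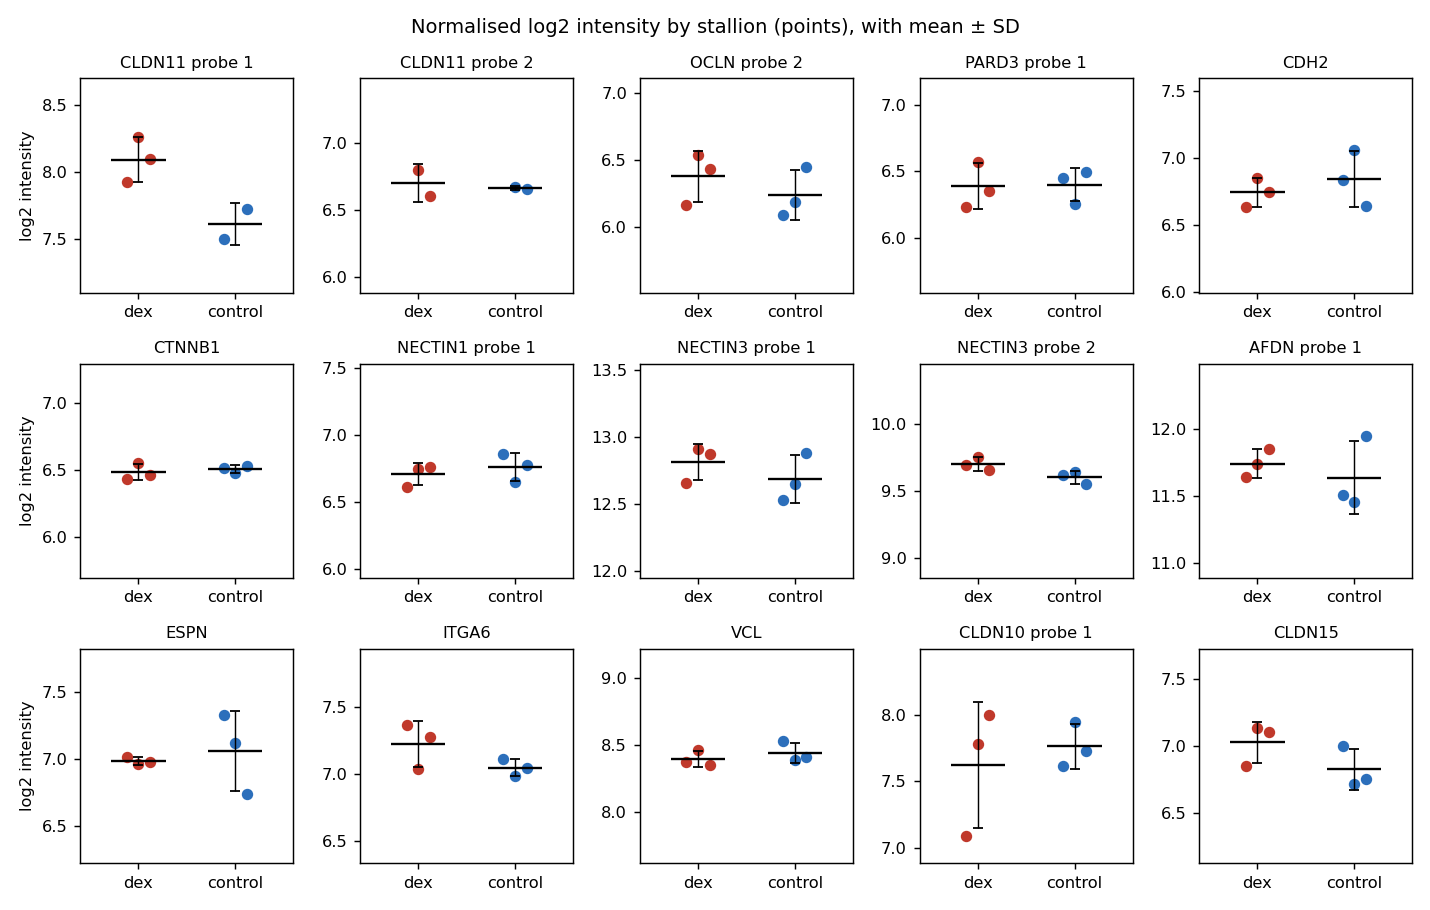
Normalised log2 intensity of 15 junction gene probes by stallion, with 1 point a stallion, bars at the group mean and whiskers of 1 SD; every panel spans 1.6 on the log2 axis. For the first CLDN11 probe the 3 dexamethasone values, 7.92 to 8.26, lie above the 2 usable control values. For NECTIN3 probe 2 the treated values, from 9.66 up, lie just above the controls, which reach 9.64. The treated and control values of the other panels overlap.

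Several probes were available to compare for 5 genes: CLDN10, CLDN11, CLDN12, NECTIN3 and AFDN. For each of them the tested probes lay on the same side of 0, which for CLDN12 rests on a second difference of less than 0.01. Among all 1196 genes with 2 tested probes, 51.2% had both on the same side. The probes of a gene were 0.09 apart in their log2 difference in the median of the 5 genes, with 0.45 for CLDN11 and 0.03 for NECTIN3, against a median of 0.10 over all genes with 2 tested probes. In 6 of the 9 genes with several probes, 1 probe was not tested while another was. Over the 21 genes, 15 had differences of opposite sign in the 2 slide runs, the second of which held 1 stallion per group. The share over all tested genes was not counted, so this number describes the members only. The 6 with 1 sign in both were CLDN11, CLDN15, CGN, NECTIN1, ITGA6 and VCL. For 20 of the 21 genes the 95% interval lay within a change of 1.5-fold either way, the exception being CLDN11, and for all tested genes this held in 10073 of 10604. CLDN10 reached that limit, with a lower bound of -0.58. These intervals are on the scale with the offset, and the transcripts may differ by more.

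Other genes of the same junctions came from a list of 82, of which 72 had a probe of their own and 52 were tested. The median difference of these 52 was 0.02, with 30 higher and 22 lower, and none passed limma's adjusted p of 0.05. Groups did not overlap for 4 higher and 2 lower of the 52, against 9.33% of all tested genes. An unadjusted p under 0.05 was reached by 4 of 52, against 3.87% of all tested genes. LAMB3, a laminin chain found at the apical ectoplasmic specialization in rodents, had 7.54, 7.57 and 7.71 in the dexamethasone stallions, against 7.29, 7.43 and 7.33 in the controls. All treated values were above all controls, and the difference was 0.26 ± 0.09 (SE). A second LAMB3 probe, also above background on all arrays, differed by -0.00 ± 0.10 with groups that overlapped, and the mean of both probes by 0.13 ± 0.08, which did not reach an unadjusted p of 0.05. TES, testin, of focal adhesions, had 7.00, 6.49 and 6.54 against 6.39, 6.09 and 6.32, and was above background in 2 treated stallions and 1 control. It differed by 0.41 ± 0.14 with groups that did not overlap. TES just met the filter of 3 arrays, 2 of them in the group where it was higher. Its unadjusted p is therefore not independent of the filter either. Another TES probe was not tested. PARD6A, a partner of PARD3, differed by -0.32 ± 0.12 but was above background in 1 treated stallion and 3 controls. It met the filter through the controls, where it was higher, so its unadjusted p is not independent of the filter. The PARD6A difference was -0.50 in the first slide run and 0.05 in the second. PKP3, a desmosomal plaque protein, had 6.99, 6.91 and 6.98 against 7.12, 7.20 and 7.16, lower in all 3 treated stallions by 0.20 ± 0.08 (SE). The limma adjusted p of each of these 4 was 0.999.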

How the data were processed

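The 6 scanner files were used, 1 array per stallion. Per the file headers, the deposited intensities are the spot mean, the median local background, their difference and a scaled value, and signal strength is a score. From the values, the scaled intensity is the difference divided by 1 constant per array, which the deposited table of the whole series repeats, and the signal strength is the spot mean over its noise level. The scanner software is not given in the sources used here. Between 353 and 610 spots per array carried the flag M and no value, and those flagged C, I or P (320 to 1189) were taken as missing. Probe names printed more than once were left out as controls. Intensities were corrected with normexp (offset 50), quantile normalised, taken to log2 and fitted with limma 3.58.1 in R 4.3.3 (lmFit, eBayes, no covariates, two-sided, Benjamini-Hochberg over 24590 probes). Median spot intensity was 72.6 to 79.4 over a background of 47 to 50. Errors are moderated standard errors. Probes of a gene are numbered by mean level, tested or not, so the tested OCLN probe is number 2 in the figures.

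Replicate numbers follow the order of the samples in a group and pair no stallions. The members, lists and rules were chosen with earlier results of these data known. Values in every stallion are given for 21 fixed members where tested, for those with non-overlapping groups, an unadjusted p under 0.05 or tested probes over 0.3 apart in their log2 difference, and for a few more members whose values were seen first, CLDN10, CLDN12, CLDN15, GJA4, GJB1, JAM3 and EPS8. Older symbols of the other junction genes and of the cell type markers were sought in the synonyms of the horse gene table, with 0 replaced. Members were sought under their listed symbols only. The test was tried on simulated data. Figures used matplotlib 3.10.9 in Python 3.11.15.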

Additional observations from a re-analysis of the deposited data

How the results depend on the processing

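No member probe passed limma's adjusted p in any of the alternatives run. Over all probes 1 passed, against 0 under background subtraction, trended robust eBayes or a filter that requires every array above background, and 0 to 3 with 1 array left out at a time. Members higher at an unadjusted p under 0.05 numbered 1, 0 with the filter of all 6 arrays, which leaves CLDN11 untested, and 1 to 2 without each array in turn. Members lower numbered 0, 1 with no filter on brightness (EPS8), and 0 to 1 without each array. Other junction genes at that p numbered 4, 2 with the filter of all 6 arrays, 6 with median scaling (where 8.17% of all genes reached it, against 3.87% as reported) or no filter (4.29%), 3 with the mean of a gene's probes, which loses LAMB3, and 2 to 5 without each array. The median of the members was -0.01, -0.069 with median scaling (-0.086 over all genes) and -0.073 with the deposited scaled intensity (-0.068 over all genes). It was 0.003 in the first slide run (-0.009 over all genes). In the second run, with 1 stallion per group, it was 0.059 (-0.005 over all genes). Without each array in turn it was -0.0085 to 0.0158. CLDN11 stayed higher in all 19 alternatives that gave it a value, by 0.28 to 0.63, and under an unadjusted p of 0.05 in all 17 with a test, the highest being 0.0479 without control replicate 1, where 1 control value is left, as without control replicate 3, and is assumed to vary like the others. Among 415 values of single members 41 changed sign. Causes were not tested, except where fewer genes or arrays entered. No paired analysis was possible because the labels give no replicate numbers. Dim probes limit what can be seen: 14 of 44 were above background on no array.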
